A study of Mus musculus with 2 samples.

Results

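The 7 genes that encode the subunits of AMP-activated protein kinase (AMPK) were followed in long-read RNA sequencing of mouse gastrocnemius, the large calf muscle. They were taken by name from the annotated genes of both count tables: Prkaa1 and Prkaa2 for the catalytic alpha subunit, Prkab1 and Prkab2 for beta, and Prkag1, Prkag2 and Prkag3 for gamma. All 7 had reads in both libraries, out of 14900 annotated genes with reads. The series holds 1 group of 2 libraries, labelled biological replicates 1 and 2, from male B6CASTF1/J mice (F1 hybrids of C57BL/6J with CAST/EiJ) at an age of 18 to 20 months. Each library was made from 2 µg of total RNA with spike-in RNAs, and nothing in the labels names a genetic change or a treatment. The labels name separate biosamples, and whether a biosample is 1 mouse or pooled tissue is not given in the sources used here.

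AMPK is an energy sensor found in most eukaryotic cells. Each complex joins an alpha, a beta and a gamma subunit: alpha phosphorylates substrates, beta holds the complex together and carries a domain that binds glycogen, and gamma binds AMP, ADP and ATP, so that the kinase becomes more active when ATP runs low. In contracting muscle it is known for promoting glucose uptake and fatty acid oxidation and for restraining energy-costly synthesis, and the gamma subunit encoded by Prkag3 is known as a form of skeletal muscle, above all of fast glycolytic fibres.

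Replicate 1 held 1509380 reads and replicate 2 held 1173233, of which the 7 genes took 1400 reads (0.0928%) and 1012 reads (0.0863%). Levels are counts per 1000000 reads of the library (CPM), and a count of 3 reads, taken as the floor, equals 1.99 CPM in replicate 1 and 2.56 CPM in replicate 2. Contractile markers of fast fibres, the main fibre type of this muscle, summed to 45505 and 49211 CPM, with all 6 of 6 detected. Markers of slow fibres also had reads for all 7 of 7 genes, and their sum was 321 CPM in replicate 1 and 4393 CPM in replicate 2. The libraries also differed by transcript length: the median log2 ratio of replicate 2 over replicate 1 was 0.69 for genes with transcripts above 5000 nt and -0.21 up to 2000 nt. With 1 group, every test on reads compared these libraries, not conditions, and intervals cover counting error only. In tissue RNA, fewer cells of a type and less RNA per cell cannot be told apart.

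The coding regions of the paralogues differ enough for a long read to belong to 1 of them. Prkaa1 (chr15:5143861-5181899, plus strand) and Prkaa2 (chr4:105029874-105109890, minus strand) have coding regions of 1680 and 1659 nt, identical at 70.5% of 1631 aligned bases. Prkab1 (chr5:116013586-116024508, minus strand) and Prkab2 (chr3:97658193-97673812, plus strand) were identical at 72.9%, and Prkag1 (chr15:98812797-98831521, minus strand), Prkag2 (chr5:24862744-25100642, minus strand) and Prkag3 (chr1:74738922-74749221, minus strand) at 65.8% to 68.3% in pairs. The longest run of bases shared by an aligned pair was 35 nt, in alpha. It is shown with the 60 coding bases after it, from the GENCODE M21 transcripts. The stretch covers coding bases 40 to 134 of Prkaa1 and 7 to 101 of Prkaa2, and capitals mark the 10 bases at which the paralogues differ.
Prkaa1: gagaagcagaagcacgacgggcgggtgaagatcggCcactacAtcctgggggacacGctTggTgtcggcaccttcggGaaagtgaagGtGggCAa
Prkaa2: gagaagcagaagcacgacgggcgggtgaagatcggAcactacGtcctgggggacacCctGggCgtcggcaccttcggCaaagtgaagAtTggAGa

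Among the catalytic subunits, reads came mostly from Prkaa2. Prkaa2 had 112 reads in replicate 1 against 163 in replicate 2, or 74.2 and 139 CPM, and Prkaa1 had 13 and 18, or 8.61 and 15.3 CPM. The levels of the 2 genes did not overlap between any of the libraries. Prkaa2 thus made up 89.6% of alpha reads in replicate 1 (exact 95% interval 82.9 to 94.3) and 90.1% in replicate 2 (84.7 to 94.0), and per kilobase of the most read annotated transcript its share was 83.8%. The split between the paralogues was nearly the same in replicate 1 as in replicate 2 (Fisher's exact test, two-sided, p = 1).

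Among the beta subunits, Prkab2 was the most read AMPK gene when all read classes were counted, and Prkab1 was close to the floor. Prkab2 had 667 reads in replicate 1 against 531 in replicate 2, or 442 and 453 CPM, which placed its mean above 98.8% of the annotated genes with reads. Prkab1 had 14 and 9 reads, or 9.28 and 7.67 CPM. Prkab2 made up 97.9% (96.6 to 98.9) and 98.3% (96.9 to 99.2) of beta reads, and 95.5% per kilobase. The split did not differ between the libraries beyond counting error (p = 0.676, two-sided Fisher's exact test). The level of Prkab2 rests on reads that no annotated transcript took: its mean fell from 447 to 37.1 CPM with annotated transcripts only, and to 54.7 CPM without incomplete splice matches (ISM, models whose junctions are part of an annotated chain) and single-exon Genomic models. In both of these counts it stood behind Prkag3 and Prkaa2.

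Among the gamma subunits, Prkag3 led in both libraries, but by less in replicate 2. Prkag3 had 518 reads in replicate 1 against 226 in replicate 2, or 343 and 193 CPM. Prkag1, the gamma form found in most tissues, had 67 and 57 reads, or 44.4 and 48.6 CPM. Prkag2, best known from cardiac muscle, had 9 and 8 reads, or 5.96 and 6.82 CPM. Prkag3 made up 87.2% of gamma reads in replicate 1 (84.2 to 89.8) and 77.7% in replicate 2 (72.4 to 82.3), and Prkag1 went from 11.3% (8.85 to 14.1) to 19.6% (15.2 to 24.6). Of the 3 subunit classes compared, gamma was the class whose split differed between the libraries (exact Freeman-Halton test, p = 0.00135, Benjamini-Hochberg adjusted over the 3 classes 0.00404). The difference between the libraries has no replicate check, and the slow-fibre markers, given above, were higher in replicate 2. The part of fibre type in this result was not tested.

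**Figure D1:**
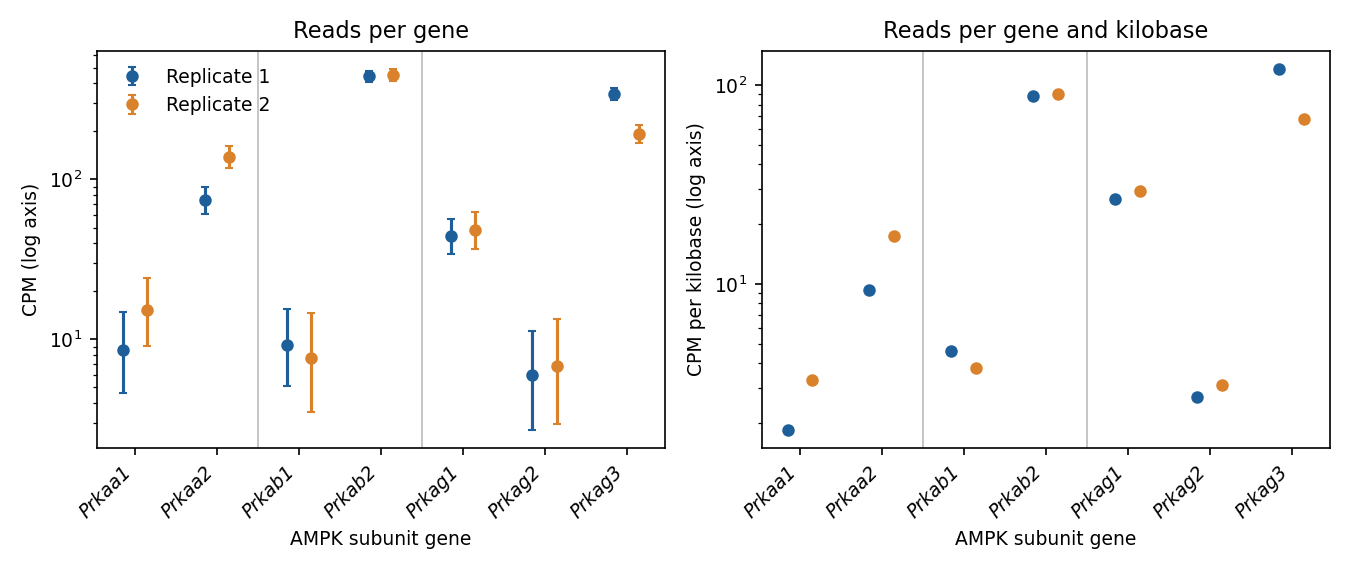
Level of each AMPK subunit gene in both libraries, as CPM with exact 95% intervals (left, log axis) and as CPM per kilobase of the most read annotated transcript (right, log axis); vertical lines separate the alpha, beta and gamma genes. Prkab2 sits at 442 and 453 CPM, while Prkab1 and Prkag2 sit below 10 CPM in both libraries.

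Per kilobase, the order of mean levels was Prkag3 (94.6 ± 37.6 CPM per kilobase, SD, n = 2), Prkab2 (89.3 ± 1.51), Prkag1 (28.1 ± 1.80), Prkaa2 (13.4 ± 5.74), Prkab1 (4.18 ± 0.560), Prkag2 (2.90 ± 0.275) and Prkaa1 (2.57 ± 1.02). The ranges of Prkag3 and Prkab2 overlapped, as did those of Prkag2 and Prkaa1, and the other neighbours in this order did not overlap. By reads alone, Prkab2 stood ahead of Prkag3 and Prkaa2 ahead of Prkag1. A long read was counted once whatever the length of its transcript, so dividing by length lowers genes with long transcripts. Prkaa2 was divided by 7969 nt and Prkag1 by 1652 nt. The values per kilobase are thus an alternative scale, and whether it suits these reads was not tested. The reads of the 3 classes were far from equal: beta reads were 5.45 times alpha reads in replicate 1 and 2.98 times in replicate 2, and gamma reads were 4.75 and 1.61 times alpha reads. The order of alpha and beta turned with the read classes counted, with mean sums of 91.8 CPM for alpha and 45.1 CPM for beta on annotated transcripts only, and 97.9 and 63.1 CPM without ISM and Genomic models. The genes nearest to Prkab2 in level over the 2 libraries, a likeness of level only, were Sypl2, 4833439L19Rik, Tmed2, Srpr and Nmrk2, all within 0.14 on the log2(CPM + 1) scale.

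The most read form of Prkab2 was not an annotated transcript. Prkab2-201, the 8-exon protein-coding transcript of GENCODE M21, starts with a noncoding exon, and its first intron (chr3:97658370-97658588, 219 nt) lies in the 5′ untranslated region ahead of the start codon. Models without the junction of this intron, but with the other 6 junctions as annotated, had 465 of 667 reads in replicate 1 (69.7%, 66.1 to 73.2) and 407 of 531 in replicate 2 (76.6%, 72.8 to 80.2). Prkab2-201 itself had 46 and 37 reads, 6.90% and 6.97%. The model without the junction was classed as an ISM in the deposited tables. Its deposited first exon runs from position 97658214 through the intron. That position is the annotated start of another transcript, Prkab2-202, to the base, and it was the start of all unannotated models that began at an annotated start of this gene, with 486 reads in replicate 1 and 432 in replicate 2. The second exon of Prkab2-201 begins 375 nt after it. The tables do not give the ends of single reads, so reads that hold the intron and reads that begin in the second exon cannot be told apart, and the chain shows only that the first junction is absent. With ISM reads counted to the annotated chain that contains theirs, Prkab2-201 was the most read form, with 77.4% and 84.6%.

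Counted over all models that span it, as deposited, the first intron of Prkab2 had no junction in 470 of 532 reads in replicate 1 (88.3%, 85.3 to 90.9) and in 413 of 469 in replicate 2 (88.1%, 84.8 to 90.9). It was spliced at the annotated sites in 47 and 37 reads. A further 15 and 19 reads used other junctions there, most of them in a model whose donor lies within the annotated intron, at chr3:97658461-97658588, with 14 and 18 reads. The other 6 introns were retained in at most 0.210% of the reads that span them, and each was spliced as annotated in 99.5% to 100% of them in both libraries. The remaining models of Prkab2 with 3 or more reads were fragments of its 3′ part or rare variants. An unannotated single-exon form inside the last exon, which is mostly 3′ untranslated, had 116 reads in replicate 1 against 46 in replicate 2, while the short transcripts Prkab2-203 and Prkab2-205, annotated as retained-intron forms, had 6 and 6 and 2 and 2 reads. ISM models that begin at the third or the fourth exon had 5 and 5 and 6 and 3 reads, and 2 models with a shifted splice site had 2 and 1 reads each.

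**Figure D2:**
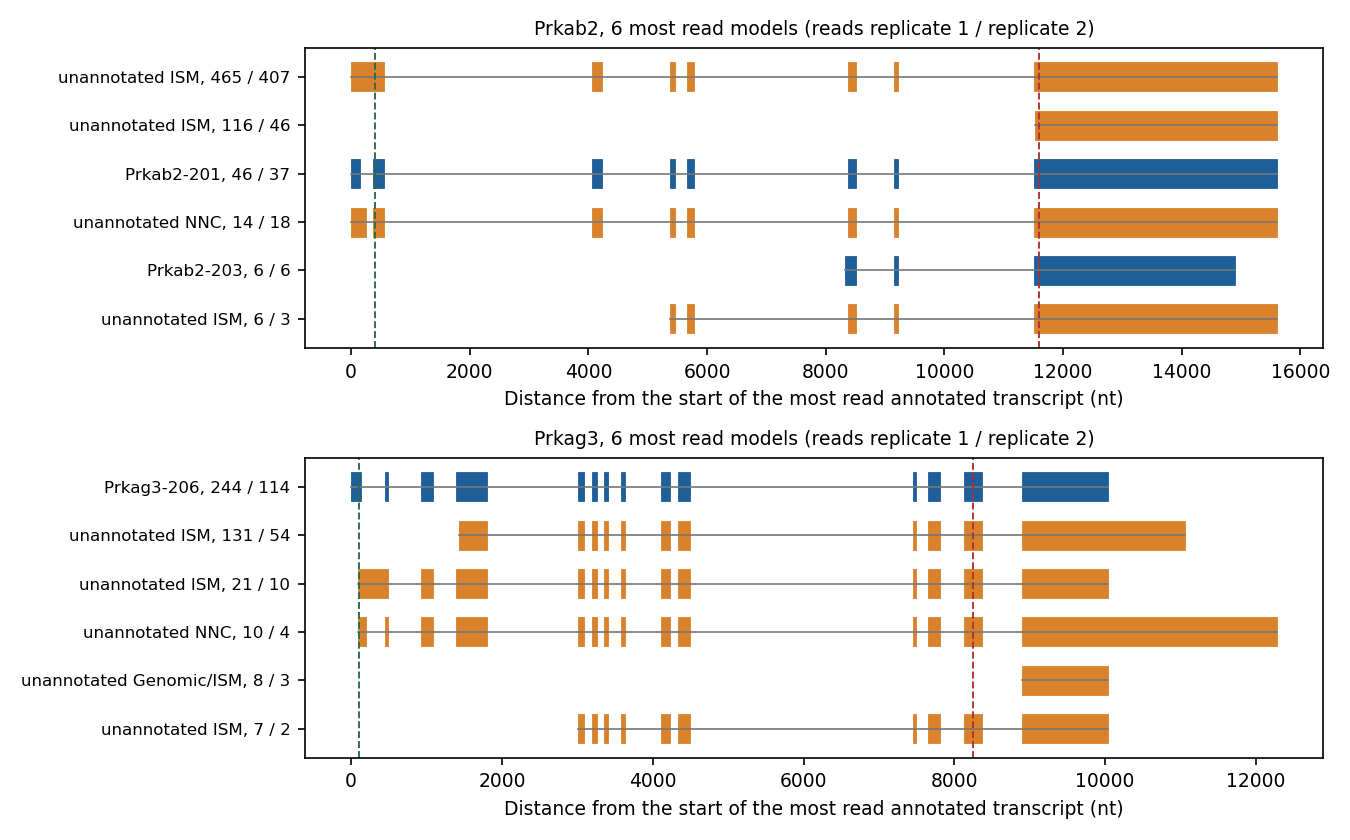
Exons (boxes) and introns (lines) of the 6 most read models of Prkab2 and of Prkag3, drawn to scale as distance from the start of the most read annotated transcript; blue marks annotated transcripts, orange unannotated models, and the dashed green and red lines the annotated start and stop codons. The uppermost Prkab2 model, with 465 and 407 reads, is drawn as deposited, with a first exon that runs through the first intron of Prkab2-201.

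An unannotated chain as the most read form was uncommon in this muscle. Among 4657 genes with 20 or more reads per library, the most read form was an annotated transcript in 87.1% and an ISM model with introns in 121 genes. ISM models took 10.2% and 9.55% of all reads on annotated genes, against 88.8% and 86.8% for Prkab2 and 36.7% and 31.0% for Prkag3. For the other 6 subunit genes an annotated transcript was the most read form over both libraries, though in replicate 2 an unannotated Prkag2 model had 3 reads against 2 for Prkag2-203.

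Prkag3 was read in many forms. The 14-exon transcript Prkag3-206, whose exons are the same as those of Prkag3-204, had 244 of 518 reads in replicate 1 (47.1%, 42.7 to 51.5) and 114 of 226 in replicate 2 (50.4%, 43.7 to 57.1). Prkag3-206 is annotated as protein coding and Prkag3-204 as a transcript of nonsense-mediated decay. Reads on these exons do not tell these annotations apart. An 11-exon ISM model that lacks the first 3 exons, and so the start codon, followed with 131 reads (25.3%, 21.6 to 29.3) and 54 reads (23.9%). Its deposited start, at position 74747518, lies within the fourth exon. The share of this shorter model was nearly the same in both libraries.

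The first intron of Prkag3 (chr1:74748512-74748817, 306 nt), which follows the exon with the start codon, was the least evenly spliced of its 13 introns. By deposited coordinates it had no junction in 29 of 332 reads in replicate 1 (8.73%, 5.93 to 12.3) and 15 of 152 in replicate 2 (9.87%, 5.63 to 15.8), which depends on the deposited start as for Prkab2, and 28 and 13 reads used other junctions there. Of the 25 unannotated chains with at least 3 reads over both libraries, 6 joined the second exon to another donor inside that intron, with 23 reads in replicate 1 and 10 in replicate 2. A further 5 chains had annotated junctions but lacked 5′ exons (147 and 57 reads), 1 had no junction at the first intron (21 and 10), and 1 kept the third intron (2 and 1). Another donor inside exon 10 was used by 3 (7 and 7), and 8 used other junctions elsewhere (29 and 7). The last 1 pooled the unannotated single-exon models (8 and 3), deposited with 1139 nt in replicate 1 and 1 nt in replicate 2. In all, Prkag3 had 72 distinct chains, of which 21 were found in both libraries and held 89.2% of its reads.

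Models of Prkag3 with 153 reads in replicate 1 and 55 in replicate 2 were deposited with a 3′ end beyond that of the annotated gene. The 11-exon model ended at position 74737892 in replicate 1, and 18 and 54 reads were in models that ended at 74736681. Both positions are exon boundaries of Cyp27a1, the neighbouring gene on the opposite strand, which ends 1029 nt away and had 88 and 44 reads. Of 156 unannotated models of the 7 genes, 125 began and 127 ended exactly at an annotated exon boundary of their own gene, and 90 of them, with 1102 of 1612 reads, began exactly at an annotated transcript start. Deposited ends are therefore given as coordinates of models and not as measured ends of transcripts.

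Prkaa2 and Prkag1 were each read mainly as 1 annotated transcript. Prkaa2-201, 9 exons and 7969 nt with a 3′ untranslated region of 6218 nt, had 78 of 112 reads in replicate 1 (69.6%, 60.2 to 78.0) and 136 of 163 in replicate 2 (83.4%, 76.8 to 88.8). Most of its other reads, 23 and 19, were unannotated single-exon forms at the 3′ end. ISM models of 3 and of 4 exons had 2 and 1 and 1 and 3 reads. Prkag1-201, 12 exons, had 43 of 67 reads (64.2%, 51.5 to 75.5) and 36 of 57 (63.2%, 49.3 to 75.6). In Prkag1 the variation lay at the first exon: a model that joins the second exon to a donor at position 98830887 had 8 and 10 reads, and a model with an extended first exon, whose donor is at 98831135, had 9 and 4. A single-exon form of Prkag1 had 4 and 2 reads.

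Among chains of at least 3 reads over both libraries, the 3 genes with few reads showed 1 further form each beside the most read annotated one. Prkaa1-201 had 10 of 13 reads in replicate 1 and 11 of 18 in replicate 2, and a model that skips exon 3 had 2 and 5. Prkab1-202 had 6 and 6 reads and Prkab1-201 had 8 and 2, and the transcripts differ by a 105-nt intron in the first exon (chr5:116024260-116024364), whose junction was absent in 8 of 14 reads (28.9 to 82.3%) and 3 of 9 (7.49 to 70.1%). Prkag2-203, the short form that starts at position 24908469, had 4 and 2 reads, and a form of it whose first intron ends 3 bases earlier had 2 and 3. The long form Prkag2-201 had 0 and 1 reads. At these counts the intervals of the shares are wide, and the shares of these 3 genes were not tested between the libraries.

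The exon that the unannotated Prkaa1 model leaves out is shown because its length decides whether the reading frame is kept. Exon 3 (chr15:5164712-5164805, plus strand, coding bases 270 to 363) has 94 nt, which is not a multiple of 3. Its sequence in the GENCODE M21 transcript is given whole.
Prkaa1 exon 3: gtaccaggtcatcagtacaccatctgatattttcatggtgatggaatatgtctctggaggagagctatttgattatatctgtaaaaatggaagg

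By deposited coordinates, models that held a complete annotated coding region took most of the reads of 6 of the 7 genes. The region could be that of any protein-coding transcript of the gene, so it was not always that of the most read one. For Prkag3, Prkag3-206 itself held 47.1% and 50.4% of the reads. The share was 78.7% (75.4 to 81.8) and 87.2% (84.0 to 89.9) for Prkab2, 70.5% (61.2 to 78.8) and 83.4% (76.8 to 88.8) for Prkaa2, 60.1% ± 0.0979 (SD, n = 2) for Prkag3, and 64.2% and 63.2% for Prkag1. Prkag2 was the exception, with 4 of 9 and 3 of 8. For Prkab2 this contrasts with the share of annotated transcripts, 8.10% and 8.47%, since the form without the first junction holds the coding region whole if its deposited start is taken as given. The reads of Prkag3 that fell short mostly missed the start codon, 174 of 518 and 71 of 226. Those of Prkab2 were mostly single-exon forms of the 3′ end, 17.4% of its reads in replicate 1 and 8.66% in replicate 2, and Prkaa2 showed the same order, with 20.5% and 11.7%. Reads assigned to an annotated transcript carry its full coordinates in the deposited annotation, whatever their own ends were.

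**Figure D3:**
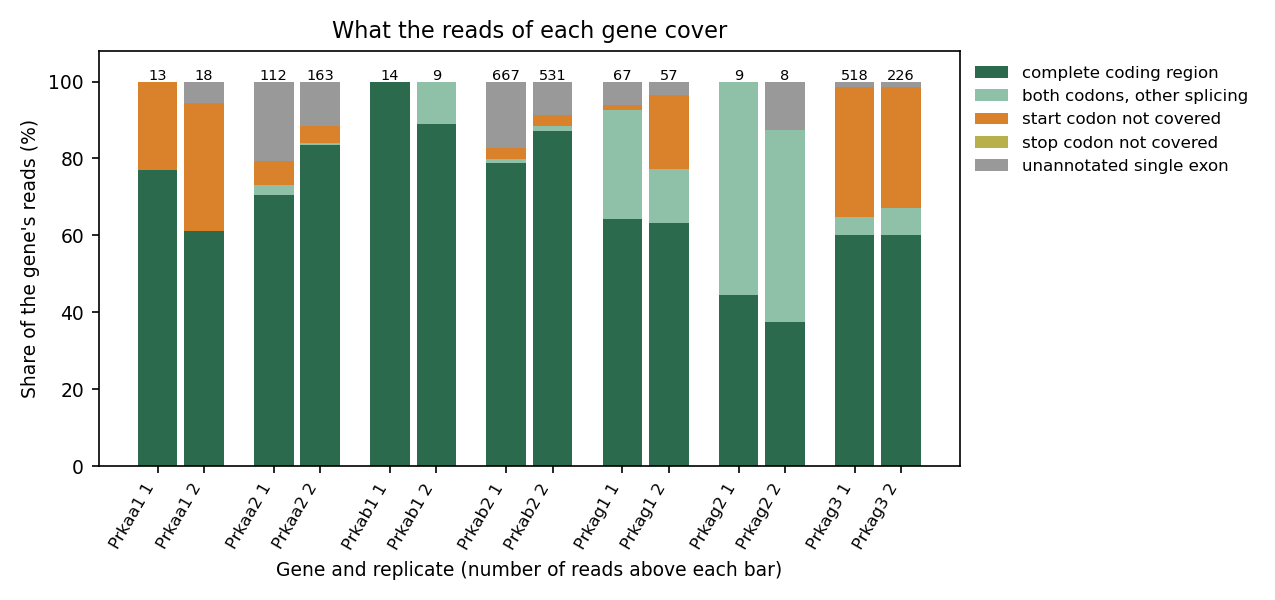
Share of each gene's reads, by replicate, in models whose deposited coordinates hold a complete annotated coding region, that span start and stop codon with other splicing, that do not reach the start codon or the stop codon, or that are unannotated single exons; the number above each bar is the gene's reads. Prkab2 and Prkaa2 have more grey, single-exon reads in replicate 1, and the orange part of Prkag3 is about equal in both replicates.

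No share of a dominant form differed between the libraries after adjustment. The test (Fisher's exact test, two-sided, of the most read form against other reads of the gene, Benjamini-Hochberg over 4657 genes) called 2.58% of the genes and 0 of the 4 subunit genes with enough reads. The adjusted p was 0.172 for Prkab2, 0.174 for Prkaa2, 0.951 for Prkag3 and 1 for Prkag1, and the unadjusted p was 0.00744 for Prkab2 and 0.00796 for Prkaa2, 2 of the 4 below 0.05. In both of these the most read form had the higher share in replicate 2.

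The levels of 0 of 7 subunit genes differed between the libraries 2-fold or more with an adjusted p below 0.05 (Fisher's exact test of reads, two-sided, Benjamini-Hochberg over the 9032 genes with at least 10 reads), against 10.3% of those genes (8.24% higher and 2.04% lower in replicate 2). At any fold, 2 of 7 had an adjusted p below 0.05, against 21.4% of the genes. Prkaa2 was higher in replicate 2, with a log2 ratio of 0.90 on the log2(CPM + 1) scale and an adjusted p of 4.79e-06, and Prkag3 was lower, with -0.83 and 4.30e-12. Prkab2 was at 0.03, Prkag1 at 0.13, Prkag2 at 0.17, Prkab1 at -0.24 and Prkaa1 at 0.77, none past the threshold (adjusted p from 0.339 to 0.946). The median over the 9032 genes was 0.19.

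Set against genes of like transcript length, the position of Prkaa2, Prkab2, Prkaa1 and Prkag3 changed, while Prkab1, Prkag1 and Prkag2 hardly moved (centred -0.24, 0.21 and 0.11). The running median was 0.76 at the length of Prkaa2, 0.60 at that of Prkab2 and 0.23 at that of Prkag3. Relative to it Prkaa2 was at 0.13 (adjusted p 0.754, exact binomial test), Prkab2 at -0.57 (6.05e-10) and Prkag3 at -1.06 (4.87e-20). Prkag3 then passed both thresholds, as did 4.65% of 8625 genes, 1.7% in that direction. Prkag3 was also past both under TMM scaling (log2 ratio -1.03, adjusted p 9.44e-19), where 9.1% of genes were called, and with DESeq2 size factors (-1.03, 6.65e-19), where 9.15% were. Counted on annotated transcripts only, Prkaa2 passed both thresholds (1.15, 1.74e-07), as did 10.2% of genes, and without ISM and single-exon Genomic models it did so too (1.08, 5.81e-07), as did 11.4%. The 6 fast-fibre markers did not share 1 direction between the libraries. In replicate 2, which was lower for Prkag3, Tnni2 and Pvalb were lower too, at -1.38 and -1.49 (centred on length -0.78, not called, and -1.09). Myh1 was higher, at 2.35 (centred 1.66). The other 3 were not called, with Myh4 at 0.36, Tnnt3 at -0.75 and Actn3 at -0.27. All 7 slow-fibre markers were higher, from 2.21 for Myl3 to 4.87 for Myh7. The part of the fibre markers in the level of Prkag3 was not tested.

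**Figure D4:**
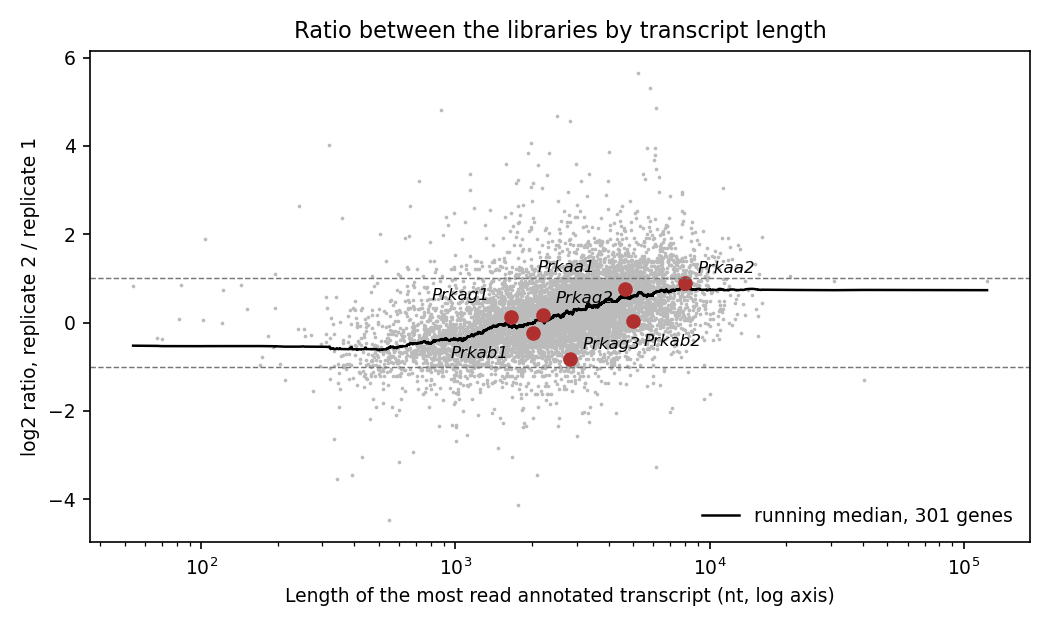
log2 ratio of replicate 2 over replicate 1 for the genes tested (grey) against transcript length (most read annotated form, nt, log axis), with the running median over genes of like length (black), a 2-fold difference (dashed lines) and the 7 subunit genes (red). Prkaa2 at 0.90 lies near the median for its length, and Prkag3 at -0.83 lies below it.

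The genes that act around AMPK were read from 7 lists of 68 genes: upstream kinases, targets, related kinases, enzymes of adenine nucleotides and phosphatases. Of 56 tested, 7 were higher and 1 was lower in replicate 2, and 48 were not called, 14.3% called against 10.3% of all genes, with a median log2 ratio of 0.34. Centred on transcript length, 1 of them was called, against 4.65% of all genes, the deacetylase Hdac4 (46 and 60 reads, log2 ratio 0.73, centred 1.30). Hdac4 was not called before centring or under TMM scaling (0.53). Its centred value depends on the length assigned to it, that of its most read annotated transcript. Endothelial markers summed to 37.8 CPM in replicate 1 and 102 in replicate 2, 3 of 5 called higher, and those of smooth muscle and pericytes to 207 and 403, 3 of 5 called higher, against 8.24% of all genes. Centred on length, 2 of 5 and 1 of 5 were called higher. No marker of either list was at 0, and their part in these results was not tested.

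Upstream of AMPK, Stk11, the kinase LKB1, had 28 and 27 reads. The highest levels of that list were those of Stradb (170 ± 29.0 CPM, SD, n = 2), an adaptor of LKB1, and Cab39 (166 ± 46.7), its scaffold. None of 6 tested was called, against 10.3% of all genes. Camkk2, the calcium-dependent upstream kinase, was near the floor with 4 and 0 reads.

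Among the metabolic targets, 3 of 12 tested were higher in replicate 2, against 8.24% of all genes, and none was lower. Centred on length, 0 of the 12 were called. Among these were Acacb, the mitochondrial acetyl-CoA carboxylase that limits fatty acid oxidation (66 and 114 reads, log2 ratio 1.13, and 0.94 and not called under TMM scaling), and Tbc1d1, a regulator of glucose transporter traffic (38 and 93 reads, 1.62). The most read were Gys1, muscle glycogen synthase (341 ± 147 CPM, SD, n = 2), and Slc2a4, the insulin-responsive glucose transporter (318 ± 22.2). Among targets in growth, autophagy and mitochondria, 2 of 10 were higher, the autophagy kinase Ulk1 (58 and 110 reads, 1.27) and Fnip1, a partner of folliculin (19 and 36, 1.22). Mtfr1l (274 ± 11.1 CPM) and Tsc2, of the complex that restrains mTOR (145 ± 59.4), were the most read there. Among transcriptional targets, 1 of 8 was higher, the coactivator Ppargc1a (19 and 43 reads, 1.47), and Mef2a (173 ± 69.7 CPM) and Hdac4 (40.8 ± 14.6) were the most read. Relative to genes of like length these 5 named genes were at 0.39 (Acacb) to 0.89 (Tbc1d1), and none of them was called.

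Of the related kinases, 0 of 7 tested were called in either direction (most read Mark3, 89.4 ± 15.8, and Snrk, 70.5 ± 17.2 CPM). Of the phosphatases, 0 of 5 were called (most read Ppm1b, 259 ± 106, and Ppp2ca, 237 ± 103 CPM). Over all genes tested, 10.3% were called. Brsk1, Brsk2 and Melk had no reads in either library, and levels under the floor of 3 reads cannot be told from absence. Among the enzymes that set AMP, 1 gene took most of the reads. Ak1, adenylate kinase of muscle cytosol, had 5570 ± 859 CPM and Ampd1, muscle AMP deaminase, 391 ± 92.5 CPM. In that list 1 of 8 was higher, Ampd3 (6 and 19 reads, 1.79), against 8.24% of all genes, and 1 was lower, against 2.04%. Centred on length, none of the 7 genes of the list tested that way was called, with Ampd3 at 1.41. Ampd1 was not among them.

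**Figure D5:**
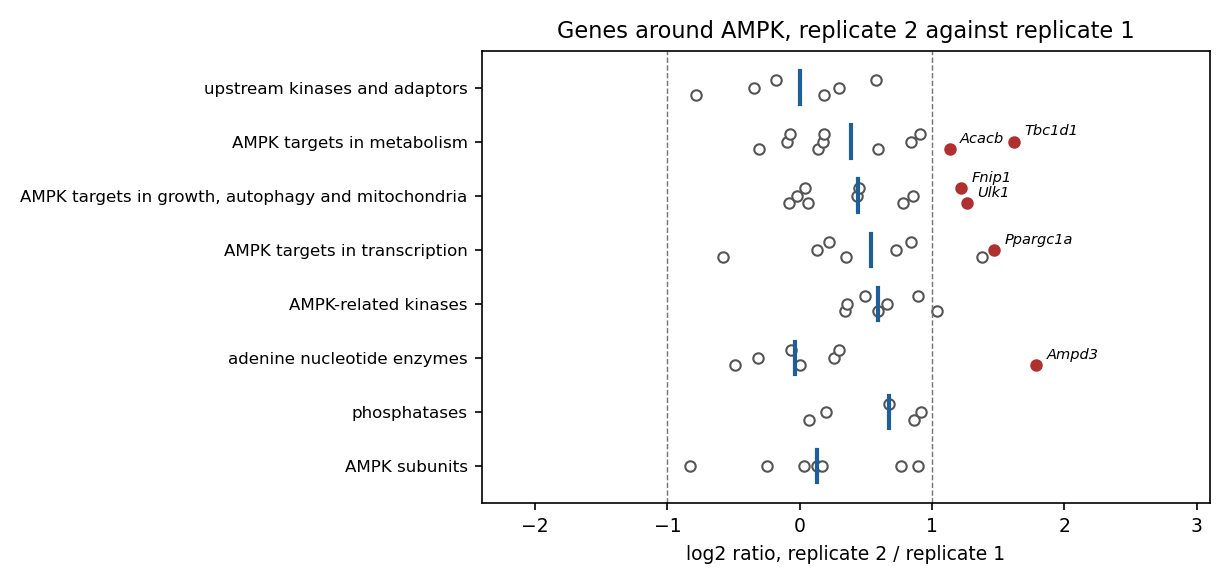
log2 ratio of replicate 2 over replicate 1 for tested genes of the 7 lists, 2 called genes left out, and for the AMPK subunits; filled points are genes called between the libraries, blue bars are medians over all tested genes of a list and dashed lines mark a 2-fold difference. The 6 called genes shown are named and lie to the right, and the 7 subunit genes lie between -0.83 and 0.90.

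The promoters of the leading beta and gamma genes and of the leading alpha gene are given as reference sequence around their annotated start sites. Where transcription began was not measured, since most deposited starts are annotated positions. The sequences are those of RefSeq on GRCm38.p6, from 250 bases before to 50 bases after the start site, at chr3:97657962-97658261 (plus strand), chr1:74748906-74749205 (minus strand) and chr4:105109849-105110148 (minus strand). Capitals mark matches on either strand to the E-box CANNTG, the MEF2 core (CTA and TAG with 4 bases between), the CCAAT box, the GC box GGGCGG or the TATA box TATAAA.
Prkab2: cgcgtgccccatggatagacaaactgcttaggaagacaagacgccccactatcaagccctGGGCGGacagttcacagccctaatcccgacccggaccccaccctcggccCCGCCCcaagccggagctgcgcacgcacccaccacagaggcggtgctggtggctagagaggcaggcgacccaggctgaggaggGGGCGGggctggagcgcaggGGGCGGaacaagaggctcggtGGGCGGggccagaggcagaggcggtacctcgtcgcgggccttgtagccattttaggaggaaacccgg
Prkag3: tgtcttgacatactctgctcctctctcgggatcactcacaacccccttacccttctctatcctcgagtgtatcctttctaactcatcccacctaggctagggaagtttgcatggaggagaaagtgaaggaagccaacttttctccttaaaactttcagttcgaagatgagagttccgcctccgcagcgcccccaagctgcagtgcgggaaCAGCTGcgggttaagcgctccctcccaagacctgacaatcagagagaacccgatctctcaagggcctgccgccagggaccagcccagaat
Prkaa2: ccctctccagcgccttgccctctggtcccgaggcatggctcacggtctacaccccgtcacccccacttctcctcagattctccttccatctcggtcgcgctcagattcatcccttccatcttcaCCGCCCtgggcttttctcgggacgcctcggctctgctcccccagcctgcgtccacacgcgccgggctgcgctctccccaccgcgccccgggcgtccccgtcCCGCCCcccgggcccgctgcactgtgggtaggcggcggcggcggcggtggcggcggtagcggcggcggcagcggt

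The Prkab2 window held 5 GC boxes and none of the other motifs, and the Prkaa2 window held 2 GC boxes. The Prkag3 window held 1 match, an E-box 40 bases before the start site, and no GC box. Of 32851 promoters of that length, 72.3% held an E-box, 35.7% a GC box, 37.4% a CCAAT box, 13.6% a TATA box and 3.69% a MEF2 core. A window with at least 1 E-box or GC box is thus not rare, and how often a window holds 5 GC boxes was not computed. The base composition differed in the same way, with 68.0% G and C for Prkab2, 72.7% for Prkaa2 and 54.0% for Prkag3. Of the other subunit genes, Prkaa1 had 5 GC boxes, Prkab1 had no match to any of these motifs, and Prkag1 had 2 GC boxes, 1 E-box and 1 CCAAT box. A match is a description of these letters and not a bound site.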

How the data were processed

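Long-read RNA sequencing of 2 gastrocnemius libraries was analysed from the deposited tables of raw counts, the reads per transcript model. According to README files that accompany the samples, the authors counted reads of a filtered alignment to mm10 with GENCODE M21, and TALON is named in the source field of their deposited annotation files. Which aligner, platform and strand setting were used is not given in the sources used here. Exon number and length came from the tables per the file headers. Exon coordinates of the deposited annotation matched GENCODE M21 in all 21 comparisons of member transcripts. Models with 0 reads are not listed.

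Counts were summed per gene over all read classes and divided by all reads in the table, spike-ins included (2.71% and 0.590%), as CPM. Totals were 1509380 and 1173233 reads. Replicate numbers came from the labels. Intron chains matched models across libraries, and unannotated single-exon models of a gene were pooled. Model ends are the deposited ones. Intervals are exact Clopper-Pearson at 95%. Fisher's exact tests covered every gene of 10 or more reads (for forms, 20 or more per library), with Benjamini-Hochberg adjustment and pseudocount 1, in Python 3.11.15 with scipy 1.17.1. TMM factors came from edgeR 4.0.16 and size factors from DESeq2 1.42.0. In simulated counts for replicate 2 against replicate 1, 9026 genes were tested, and 96.0% of 5-fold and 58.0% of 2.5-fold increases were recovered, with 76.2% of decreases to 0.2 and 44.2% of decreases to 0.4 of the level.

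Named were all 7 genes with every annotated form and every unannotated chain of at least 3 reads (grouped for Prkag3), list members called or among the 2 with the highest mean CPM, and the 5 genes nearest in level to Prkab2. The members and lists were chosen with earlier results of these data known. Stk11, Camkk2, Brsk1, Brsk2, Melk, Cyp27a1 and the fibre markers were named after their values were seen. Antisense models were left out of the levels. Of the called list members, 2 are not reported here by name, and the counts include them.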

Additional observations from a re-analysis of the deposited data

Results flagged for a closer look

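Reads on the strand opposite to a subunit gene, which entered no level above, exceeded the floor of 3 reads at Prkaa2 and Prkag1. The Prkaa2 locus held 6 antisense reads in replicate 1 and 17 in replicate 2, against 112 and 163 reads of the gene. All were in single-exon models, and 5 and 8 of them began at the same position within the last exon of Prkaa2, 105030677. The Prkag1 locus held 5 antisense reads in replicate 1 and 0 in replicate 2, of which 4 lay over its first exon. These counts have no control sample, and the strand setting of the counting is not given in the sources used here.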

How the results depend on the processing

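Of 208 alternative values, 146 kept their direction and side of the threshold or moved by no more than the SD of the 2 libraries. These 146 include 22 values without replicate 1 and 22 without replicate 2, whose outcome was fixed in advance because they cannot move beyond that SD. Also fixed were 8 values with no read minimum, 7 with at least 20 reads, 8 at a fold minimum of 4 and 8 with pseudocount 5. Those settings leave the ratios of the subunit genes unchanged or shrink them, and all were below 2-fold before. With annotated transcripts only, the summed level fell from 895 to 299 CPM, the share of Prkab2 in beta to 82.2% and that of Prkaa2 was 90.6%; without ISM and Genomic models these were 382 CPM, 86.4% and 87.7%. Per kilobase the shares were 83.8% for Prkaa2, 95.5% for Prkab2 and 74.0% for Prkag3. The count of subunit genes called between the libraries went from 0 to 1 under TMM scaling, DESeq2 size factors and centring on length (Prkag3), with annotated transcripts only and without ISM and Genomic models (Prkaa2, log2 ratio 1.15 and 1.08). Small ratios changed sign. Prkab2 was at -0.16 (TMM), -0.17 (DESeq2), -0.019 (thinned) and -0.57 (centred), Prkag1 at -0.067 and -0.071 (TMM, DESeq2), Prkag2 at -0.0044 (TMM), -0.0082 (DESeq2), -0.35 (without ISM and Genomic models) and 0 (thinned), and Prkab1 at 0.15 (thinned). Among annotated transcripts only, the dominant form held 83.7% for Prkab2. It necessarily held 100% for Prkaa2, Prkag1 and Prkag3, which had no other annotated form with reads. With ISM reads added to the annotated chain that contains theirs, it was 81.0% for Prkab2 (then Prkab2-201), 65.3% for Prkag1 and 80.5% for Prkag3. The pathway calls went from 8 to 1 when centred on length. Leaving out 1 library moved no summed level, share or dominant share beyond the SD, which with 2 libraries it cannot. The count over all genes called went from 928 to 401 when centred. No paired analysis was possible because there is 1 group. Counting noise limits Prkaa1, Prkab1 and Prkag2, each with at most 31 reads.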
